A study of Homo sapiens with 54 samples.

Results

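Type I interferon-stimulated antiviral genes were described as a group of 36 named genes: sensors of viral nucleic acid, the enzymes and binding proteins that block viral RNA and protein synthesis, and the ubiquitin-like system around ISG15. The members are the probe sets that the annotation of the array assigns to those symbols alone (the symbol RIGI stands for the gene once named DDX58), and all 36 of the 36 symbols had at least 1 such probe set, out of 11963 genes with a probe set of their own. The cells were HT-29, a human colon adenocarcinoma line, seeded at 50000 cells/cm2. Every culture was first primed for 24 h with interferon-gamma at 200 U/ml, the type II interferon. That priming was shared by the untreated cells and all treated groups, so no value here sets primed cells against unprimed ones. The cells then received no further agent, TNF (5 or 100), EGF (100), insulin (500), or a mixture, with all doses in ng/ml. The mixtures were TNF 100 with EGF 100, TNF 100 with insulin 500, TNF 5 with EGF 1 and TNF 5 with insulin 5. RNA was taken 4, 8 and 16 h later, with 2 biological replicates in each of the 27 groups, which makes 54 arrays.

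In the textbook pathway, a cell that senses viral nucleic acid secretes interferon-beta, which acts on its own receptor and on that of its neighbours. The receptor's kinases activate a transcription factor complex that includes IRF9, and this complex binds a DNA element called the interferon-stimulated response element (ISRE) in front of antiviral genes. Interferon-gamma acts instead mostly at a shorter element, the gamma-activated site (GAS), although the gene lists of both interferons overlap. TNF, a cytokine of inflammation, acts on NF-kB, which binds the kappaB element.

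The promoters of the members are shown first because the ISRE was more frequent in them than among the genes of the promoter table. RefSeq promoter windows on GRCh38.p14, from 250 bases before to 50 after the start, were given for 30 members, with 1 to 3 windows a gene. No window was used for OAS2, OASL, IFIT2, MX2, USP18 and TRIM22. The ISRE core was searched as GAAANNGAAA and the gamma-activated site as TTCNNNGAA, where N is any base, with the kappaB consensus searched by its name, all on both strands. An ISRE match was found in 22 of the 30 members (73.3%), against 4.38% of 27305 genes in the same table. A GAS match was found in 9 members (30%, against 9.38% of all genes) and a kappaB match in 6 (20%, against 13.3%). The kappaB holders included BST2, MX1, OAS3, RIGI and XAF1, and 4 of the 6 also held an ISRE match (13.3% of the 30 members, against 0.546% of all genes). In a comparison list of NF-kB targets such as CXCL8 and NFKBIA, 0 of 11 genes held an ISRE match and 8 (72.7%) held a kappaB match. A match is a run of letters and was not tested for binding. The following stretches are read in the direction of the gene, 5′ to 3′, with the letters of the match named on that line in capitals. Other matches can lie partly in the lower-case letters. ISG15 has another ISRE match at 107 to 98 bases and IFIT1 at 103 to 94, and OAS3 another kappaB match at 129 to 120. They were chosen to show an ISRE in members that differed in timing (RSAD2, IFIT1, ISG15, ISG20), and the kappaB letters in an early member (RIGI) and beside an ISRE (OAS3).
RSAD2, ISRE, 145 to 136 bases before the start, chr2:6877620-6877653, plus strand: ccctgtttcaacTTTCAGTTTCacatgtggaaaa
IFIT1, ISRE, 116 to 107 bases before the start, chr10:89392495-89392528, plus strand: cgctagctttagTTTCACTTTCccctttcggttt
ISG15, ISRE, 113 to 104 bases before the start, chr1:1013372-1013405, plus strand: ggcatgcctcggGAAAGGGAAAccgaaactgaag
ISG20, ISRE, 69 to 60 bases before the start, chr15:88638935-88638968, plus strand: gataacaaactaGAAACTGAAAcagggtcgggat
OAS3, ISRE, 143 to 134 bases before the start, chr12:112938319-112938352, plus strand: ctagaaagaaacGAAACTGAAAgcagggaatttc
OAS3, kappaB, 130 to 121 bases before the start, chr12:112938332-112938365, plus strand: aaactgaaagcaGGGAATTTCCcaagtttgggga
RIGI, kappaB, 76 to 67 bases before the start, chr9:32526251-32526284, minus strand: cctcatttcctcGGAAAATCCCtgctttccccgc

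**Figure D1:**
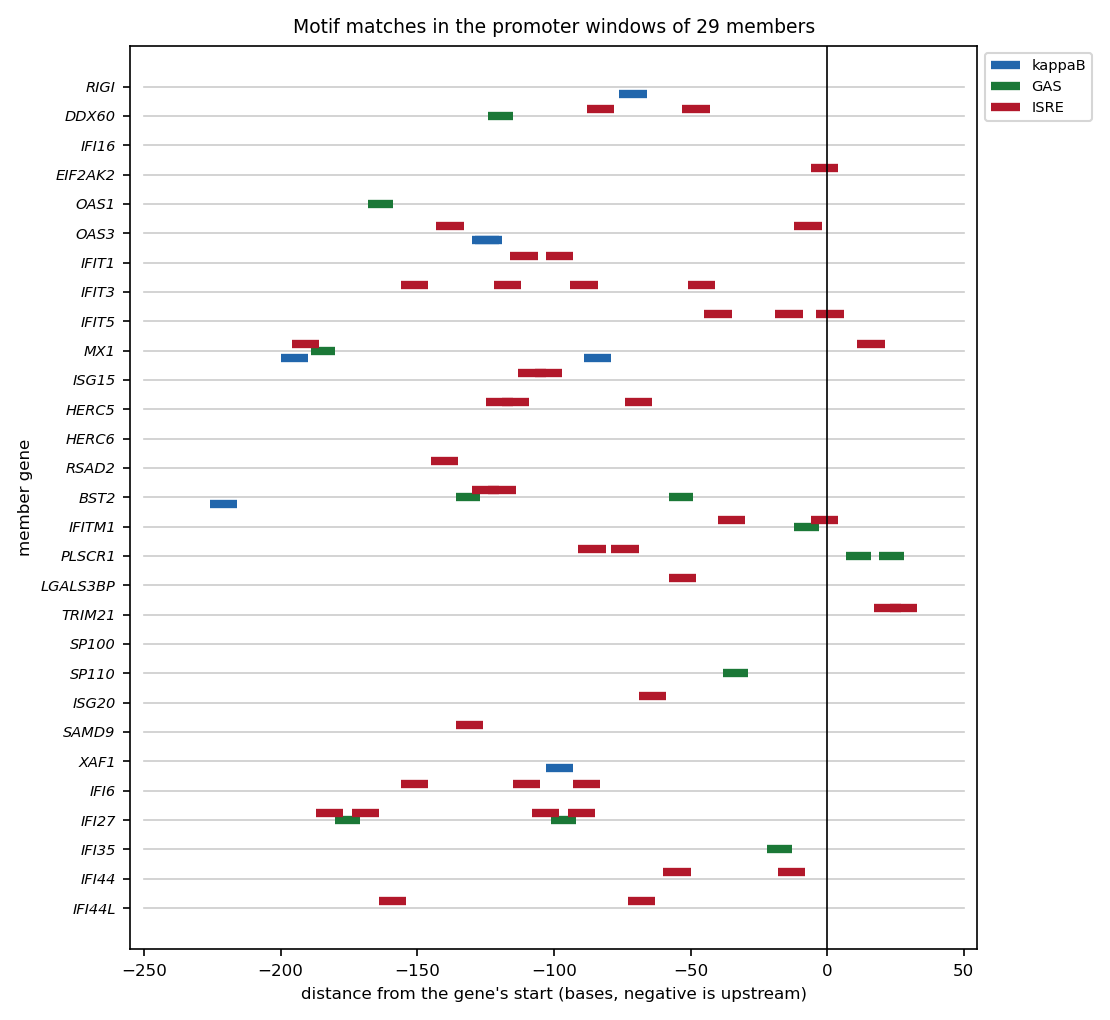
Motif matches in the promoter windows of 29 members, plotted as distance from the gene's start in bases (negative is upstream), with ISRE in red, GAS in green and kappaB in blue. ISRE matches lie in 21 of these members, with at least 1 match wholly before the start in 19; in EIF2AK2 and TRIM21 every ISRE match reached past the start, and IFIT5, IFITM1 and MX1 had matches of both kinds.

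The arrays were Affymetrix human gene expression arrays, deposited as MAS5 signals, and each value below is such a signal on a linear scale unless it is called a log2 difference. The mean of each array's signals without the outer 2% was 500.2, so the arrays shared that mean, which does not make their distributions equal. The 10th percentile of an array's signals ran from 8.70 to 21.86. Of 8 colon epithelial markers, EPCAM, KRT8, KRT18, KRT20 and CDH1 had median signals of 4231 to 25990, CEACAM5 916 and VIL1 459. CDX2, a colon transcription factor, was near background at 11.5. Of the markers of leukocytes, endothelium or fibroblasts, PTPRC (21.1), VWF (33.1) and COL3A1 (60.9) did not pass the filter on low signal, whereas CD14 (89.4), CD3E (131.7), PECAM1 (147.7) and COL1A1 (388) did, and their part in the results was not tested. All 36 members passed the filter on low signal in at least 1 untreated group, so none was measured only because TNF raised it. The ACTB 3′ to 5′ ratio, a sign of RNA integrity, was highest in replicate 2 of TNF 100 at 8 h (1.19 on the log2 scale). Next came replicate 2 of insulin 500 at 8 h (0.98). At 8 h the ratio was higher in replicate 2 than in replicate 1 of every treatment. At 16 h it was highest in replicate 1 of TNF 100 with insulin 500 (0.63). The part of this ratio in the results was not tested.

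With TNF at 100 ng/ml the group was higher than in untreated cells, and by far more at 16 h than before. Averaged over the 36 members, the log2 signal in untreated cells was 9.79 and 9.75 in the arrays at 4 h, 9.91 and 9.84 at 8 h and 10.36 and 10.46 at 16 h. With TNF 100 it was 10.16 and 10.08 at 4 h, 10.57 and 10.55 at 8 h and 12.41 and 12.36 at 16 h. The groups did not overlap at any time. In the limma test over the 3 times together (Benjamini-Hochberg adjusted p below 0.05 over all probe sets), 32 of 36 members were higher and 0 were lower. Of the 8105 genes tested, 7.29% were called higher in that comparison. The test asks whether a gene differed at any of the 3 times. Higher or lower is the sign of the mean of the 3 differences. The members' median difference was 0.80 on the log2 scale, beside -0.09 over all genes tested. Of all genes called in either direction, 39.2% were higher with TNF 100 in the values as deposited. After median centring of each array that share was 56.3%, and the members' median was then 0.88. The 4 members that did not pass were IFI6 (1.16, adjusted p = 0.0995), ISG15 (0.40, 0.0641), DDX60 (0.24, 0.25) and LGALS3BP (0.03, 0.946). With the replicate block, IFI6 (adjusted p = 0.000105), ISG15 (0.00157) and DDX60 (0.0242) passed and LGALS3BP (0.854) did not.

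**Figure D2:**
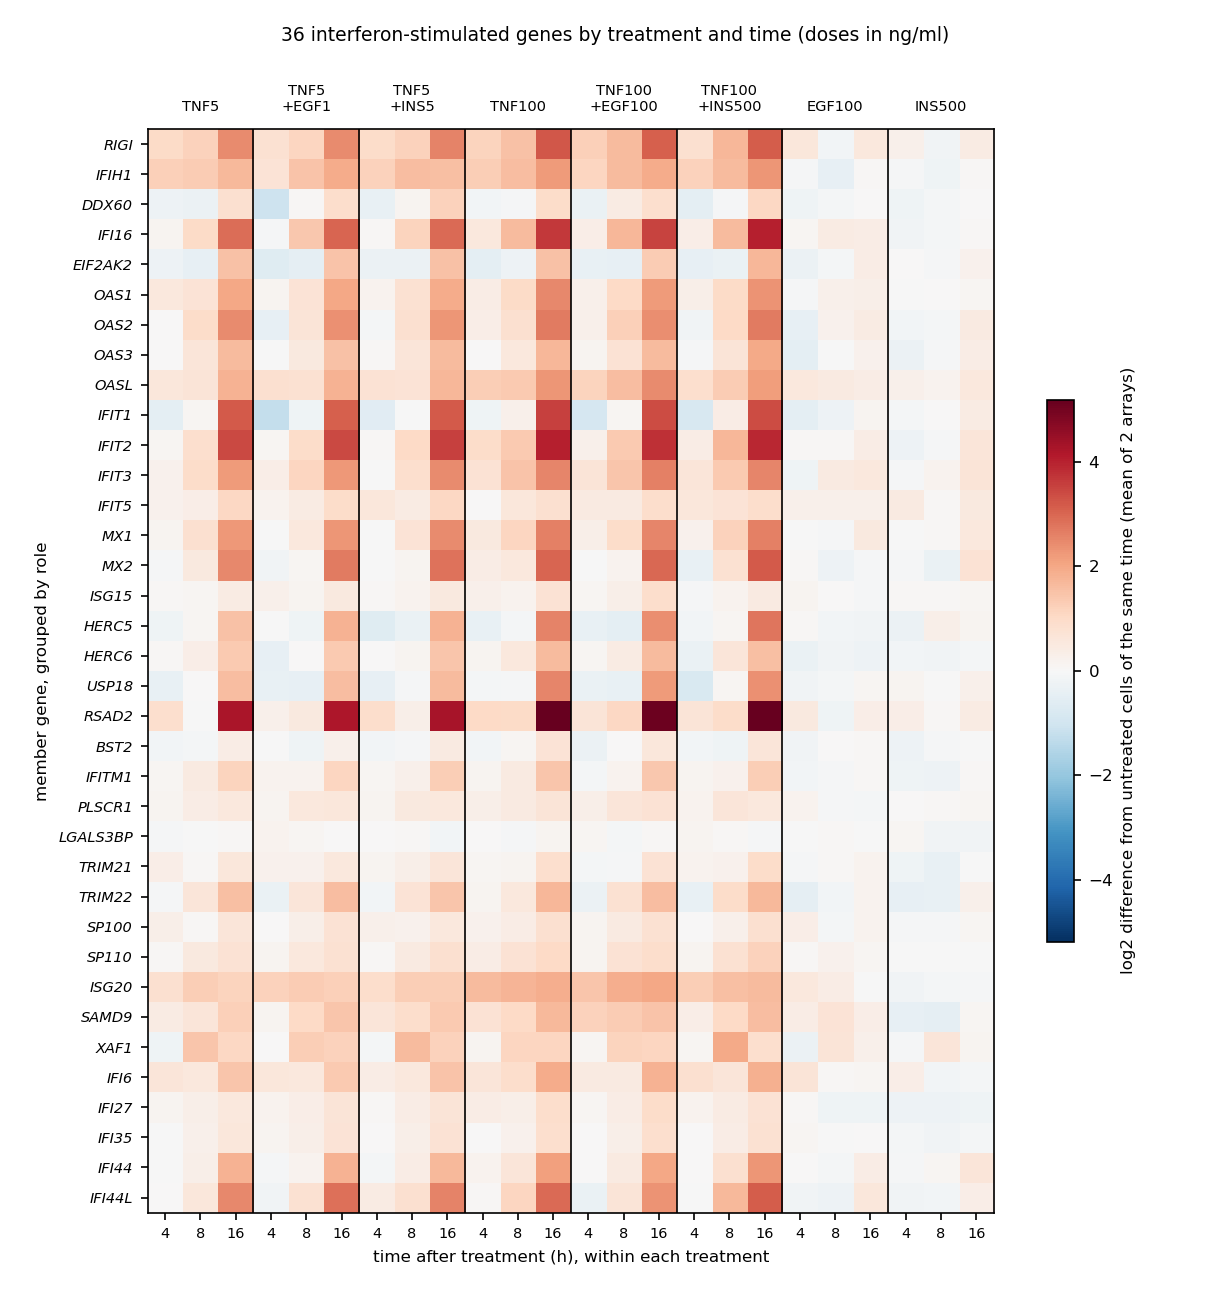
Each row is a member gene and each column a treatment and time; colour gives the log2 difference from untreated cells of the same time, as the mean of 2 arrays. The 16 h columns of the 6 treatments that contain TNF are the darkest, up to 5.19 for RSAD2 with TNF 100, and those of EGF and insulin alone stay pale.

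Among the 5 sensors, 4 were called higher with TNF 100 over the 3 times. RIGI, the helicase that detects viral RNA ends, had signals of 528 and 542 in untreated cells and 5603 and 4536 with TNF 100 at 16 h. Its log2 difference was 1.15 at 4 h, 1.51 at 8 h and 3.21 (SE 0.24) at 16 h, where the adjusted p in limma was 4.3e-12. IFIH1, also called MDA5, which detects long viral RNA, went from 857 and 1165 to 4694 and 4664 at 16 h. Its differences at 4, 8 and 16 h were 1.26, 1.62 and 2.21. Both sensors were thus already called at 4 h, where RIGI had 381 and 164 in untreated cells and 569 and 573 with TNF 100. Each of these calls was lost when a single untreated array was left out, as given below. IFI16, a nuclear DNA sensor, had signals of 172.8 and 214 in untreated cells and 2806 and 2412 with TNF 100 at 16 h, a difference of 3.67 (SE 0.23, adjusted p = 3.59e-14). At 4 h its difference was 0.54 and did not pass (adjusted p = 0.27). EIF2AK2 is the kinase PKR, which stops translation when it binds viral RNA. Its signals at 4 h were 1065 and 1687 in untreated cells and 853 and 1055 with TNF 100, a difference of -0.49 that did not pass (adjusted p = 0.207). At 8 h they were 1143.8 and 1089.5 against 935.8 and 894.9, a difference of -0.28 that did not pass. At 16 h they were 766 and 1037 against 2896 and 2354, a difference of 1.54 (SE 0.20, adjusted p = 3.65e-07). A second probe set of EIF2AK2 gave 1.52 at 16 h, and 0.51 over the 3 times where the one described gave 0.25. DDX60, a helicase related to these sensors, had untreated signals of 1028 and 2422 at 16 h and 2455 and 3853 with TNF 100. It did not pass in limma (0.96, SE 0.35, adjusted p = 0.0728). Replicate 2 was the higher in both groups, and with the replicate block DDX60 passed over the 3 times, as given above.

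All 4 members of the OAS family, which sense viral RNA and switch on an RNA-degrading enzyme, were higher. OAS1 rose from 1165 and 1417 to 6879 and 7553 at 16 h, a log2 difference of 2.48 (SE 0.18). OAS2 rose by 2.70 and OAS3 by 1.72 at that time. A second, dimmer probe set of OAS2 gave 1.26 at 16 h (adjusted p = 0.00447 in limma), and 0.47 over the 3 times where the brighter one gave 1.29. OASL, a family member without the synthetase activity, had signals of 1198 and 1290 in untreated cells at 4 h and 2949 and 3092 with TNF 100. It was the only OAS gene past the threshold at 4 h (1.27, adjusted p = 7.41e-07 in limma), and its difference reached 2.28 at 16 h.

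The IFIT proteins bind foreign RNA caps and ends, and all 4 of the members were higher over the 3 times, with a late rise. IFIT1 had signals of 418 and 692 in untreated cells and 422 and 496 with TNF 100 at 4 h, and 551 and 616 against 714 and 674 at 8 h. At 16 h untreated cells had 622 and 1250 and TNF 100 cells 9942 and 10962. The groups overlapped at 4 h and were far apart at 16 h, with differences of -0.23, 0.25 and 3.55 (SE 0.26; adjusted p at 16 h 2.39e-12 in limma). IFIT2 had 751 and 557 in untreated cells and 11798 and 10050 with TNF 100 at 16 h, a difference of 4.05 (SE 0.47). IFIT3, which binds IFIT1, rose by 2.53 at 16 h and already by 1.47 at 8 h. IFIT5 rose least of the family, from 1162 and 1676 to 2511 and 2519 (0.84, SE 0.21, adjusted p = 0.00441). The second probe set of IFIT5 gave 0.22 over the 3 times and did not pass (adjusted p = 0.3).

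The MX GTPases act against viral components inside the cell. MX1 had signals of 1105 and 1355 in untreated cells and 7377 and 7789 with TNF 100 at 16 h, a log2 difference of 2.62 (SE 0.20). MX2 had 519 and 514 against 4573 and 4040.4, a difference of 3.03 (SE 0.24). At 8 h MX1 had passed the test (1.12, adjusted p = 0.000325 in limma) and MX2 had not (0.53, 0.246).

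The ISG15 system attaches the small protein ISG15 to other proteins and removes it again. ISG15 itself was high without TNF, at 13336 and 14204 in untreated cells at 16 h, and 19955 and 26725 with TNF 100. Its difference at 16 h was 0.75 (SE 0.23, adjusted p = 0.023 in limma), and over the 3 times it did not pass. HERC5, the ligase that attaches ISG15, was low at 164.9 and 198.7 in untreated cells and was 1064 and 1208 with TNF 100 at 16 h (2.57, SE 0.31). At 8 h its TNF 100 arrays, 86.3 and 227, lay on both sides of the untreated 172.8 and 138.7. HERC6, a relative of HERC5, rose by 1.66 at 16 h. USP18, which removes ISG15 and dampens interferon receptor signalling, had differences of -0.09 at 4 h and -0.08 at 8 h. At 16 h it went from 458 and 476 to 3405 and 2301, a difference of 2.55 (SE 0.33).

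Among membrane-bound and secreted members, RSAD2, also called viperin, which makes a chain-terminating nucleotide, had the largest difference of all 36 at 16 h. Its signals in untreated cells were 22.3 and 102 at 4 h, 150.2 and 135.9 at 8 h and 189.7 and 266 at 16 h. With TNF 100 they were 137.6 and 98.5 at 4 h, 382 and 232 at 8 h, and 8648 and 8631 at 16 h. The difference was 1.03, then 1.00, and then 5.19 (SE 0.32) at 16 h, where the fold on the log2(signal + 12.5) scale was 36.5 and the adjusted p in limma was 2.84e-14. The earlier differences did not pass (adjusted p = 0.0661 and 0.0649). IFITM1, a membrane protein that hinders virus entry, rose by 1.45 at 16 h, from 5682 and 5515 to 14314 and 16414. BST2, the tether that holds budding virus, rose by 0.71 and PLSCR1, a lipid scramblase, by 0.68. For PLSCR1 another probe set gave 0.34 over the 3 times and did not pass (adjusted p = 0.63). LGALS3BP, a secreted glycoprotein, had 9889 and 8414 in untreated cells and 9953 and 10130.0 with TNF 100 at 16 h. Its 95% interval over the 3 times ran from -0.16 to 0.22 on the log2 scale.

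The TRIM and nuclear body members were all higher over the 3 times. TRIM22, a ubiquitin ligase, went from 2343 and 2304 to 7782 and 7804 at 16 h (1.74, SE 0.21). TRIM21, an antibody receptor in the cytosol, rose by 0.88, SP100 by 0.85 and SP110 by 1.04, the last a nuclear body protein of the SP100 family. Over the 3 times, 3 of the 5 probe sets of SP100 passed, at 0.47 to 0.51, and 3 of the 4 of SP110, at 0.59 to 0.72; the dimmer ones had the same sign and did not pass.

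Of the other 8 members, 7 passed over the 3 times. ISG20, an exonuclease that degrades RNA, had the steadiest difference: 1.62 at 4 h, 1.77 at 8 h and 1.87 at 16 h (SE 0.16 each). Its untreated signals were 1095 and 1067 at 4 h and 3178 and 2626 at 16 h, beside 3520 and 3206 and then 11368 and 9877 with TNF 100. SAMD9, which restricts poxviruses, rose by 0.73, 1.03 and 1.68. XAF1, a pro-apoptotic factor, rose by 1.12 at 8 h and 1.13 at 16 h. IFI44L and IFI44, whose antiviral roles are less defined, rose by 2.94 and 2.14 at 16 h. IFI27 (0.90) and IFI35 (0.88) rose less. IFI6, a protein of the endoplasmic reticulum, went from 501 and 529 to 2345 and 1710.4 at 16 h, a difference of 1.93 (SE 0.66) that missed the threshold (adjusted p = 0.0508). Its untreated replicates lay apart at 4 h, at 374 and 58.4, and at 8 h, at 169.5 and 437.

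**Figure D3:**
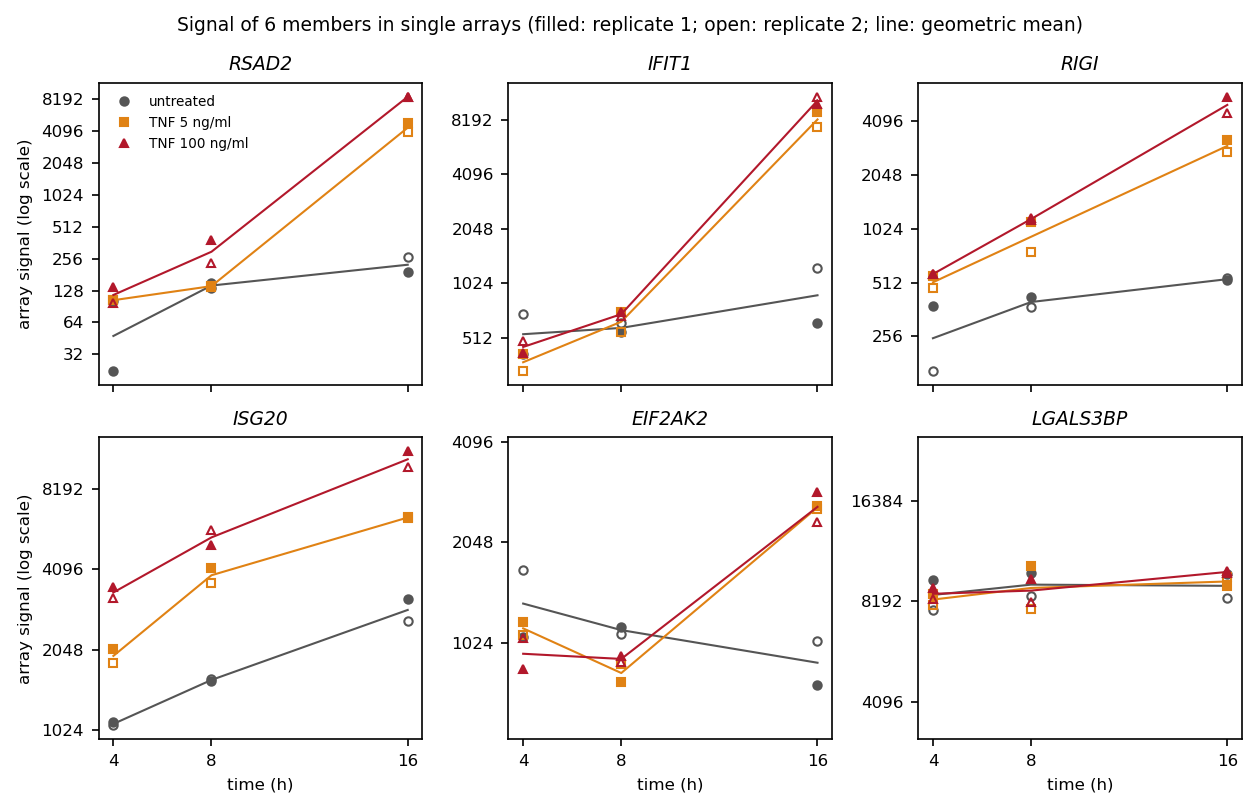
Signal on a log axis against time in hours for 6 members in untreated cells (grey), TNF 5 (orange) and TNF 100 ng/ml (red); points are single arrays, filled for replicate 1 and open for replicate 2, and lines join geometric means. RSAD2 and IFIT1 climb most between 8 and 16 h with TNF, ISG20 and RIGI are apart at 4 h, EIF2AK2 crosses, and LGALS3BP stays between 7719 and 10426 in these arrays.

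The number of members called grew with time. At 4 h, 5 members were called higher with TNF 100 (2.95% of all genes were): ISG20, OASL, IFIH1, RIGI and SAMD9. At 8 h, 16 members were called (3.12% of genes), and at 16 h 33 were (5.85%). The 5 early genes were called at all 3 times, where at most 2.95% of all genes can be. At 16 h alone 17 members were called, among them RSAD2, IFIT1, IFIT2, MX2, HERC5 and USP18. At most 5.85% of all genes can be called at 16 h alone. The 4 h count was 10 with the replicate block and 2 with only the compared groups in the fit, and ISG20 and OASL were the 2 called at 4 h under every alternative run. Without replicate 1 of untreated cells at 4 h IFIH1 was not called (adjusted p = 0.0887), and without replicate 2 RIGI was not (0.344). The SAMD9 call was lost without replicate 1 of untreated cells or either replicate of TNF 100 at 4 h (adjusted p up to 0.47). The 8 h count was 8 without replicate 2 of untreated cells, 7 without the replicate 2 arrays of that time and 3 with only the compared groups. The members' median log2 differences at the successive times were 0.24, 0.57 and 1.81. The difference was largest at 16 h in 36 of 36 members, and it rose from each time to the next in 32. In all 8105 genes the largest value fell at 16 h in 2706. The NF-kB target list ran otherwise: its medians were 2.75, 2.94 and 2.34, and the largest value fell at 16 h in 3 of 11 genes. CXCL8, a chemokine, had 4.53, 5.43 and 5.03, and CCL20, also a chemokine, had 4.78, 6.60 and 1.85.

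The change of the TNF 100 difference between 4 and 16 h was tested directly. It was larger at 16 h in 22 of 36 members and smaller in 0 (limma, adjusted p below 0.05), where 1.83% of all genes were called higher. The median of that change was 1.40 on the log2 scale. RSAD2 had the largest change (4.16, SE 0.46, adjusted p = 1.64e-07), followed by IFIT1 (3.77) and IFI16 (3.14). Of the 5 early genes, OASL (1.01) and RIGI (2.06) passed, and ISG20 (0.25, adjusted p = 0.811), IFIH1 (0.95, 0.162) and SAMD9 (0.95, 0.0956) did not. In the NF-kB list 1 of 11 genes had a larger difference at 16 h and 2 a smaller one. With TNF 5, which shares the untreated arrays, 20 of 36 members were called (0.691% of genes), and all 20 were among the 22.

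**Figure D4:**
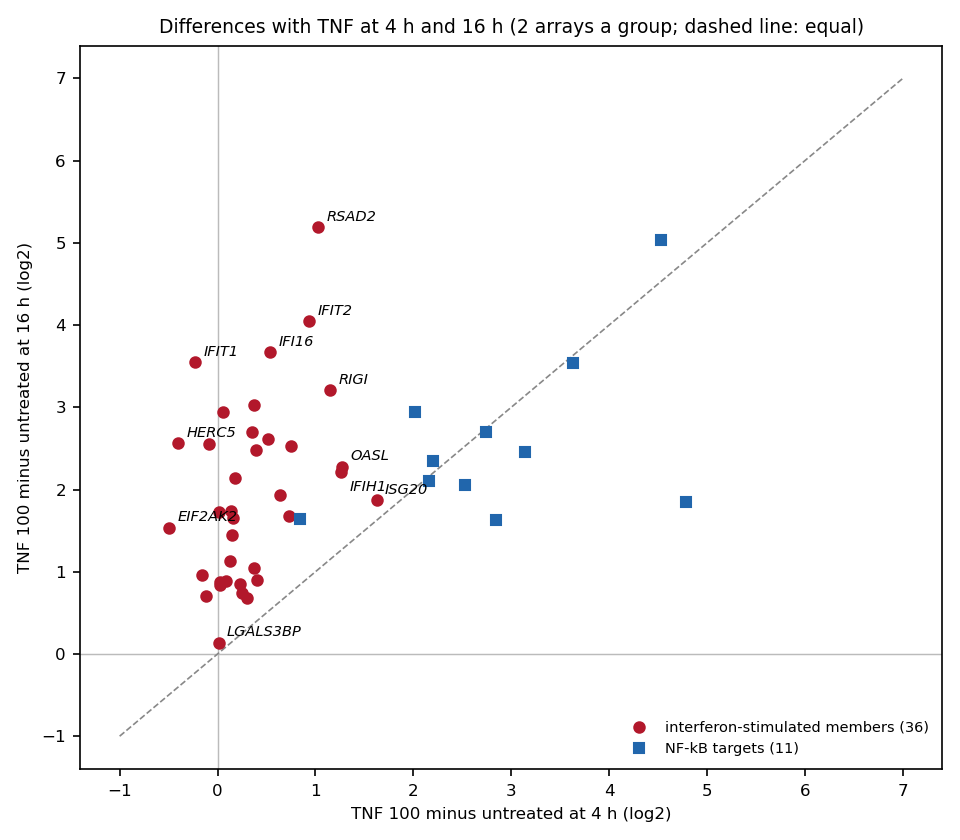
The log2 difference of TNF 100 from untreated cells at 4 h (x axis) against that at 16 h (y axis), for 36 members (red circles) and 11 NF-kB targets (blue squares); the dashed line marks equal values. The members lie above the line, at up to 5.19 on the y axis, while the NF-kB targets lie on both sides of it, up to 4.78 on the x axis.

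The differences of the members were also set beside the motif matches in their promoter windows. At 16 h the 22 members with an ISRE match had a median difference of 1.70 (0.14 to 5.19), and the 8 without had 1.39 (0.85 to 3.67). IFI16 and RIGI, with differences of 3.67 and 3.21, were among those without. The 9 with a GAS match had a lower median, 0.96 (0.68 to 2.62), than the 21 without, 1.87 (0.14 to 5.19). For kappaB the medians at 16 h were 1.97 (0.71 to 3.21) in the 6 with a match and 1.60 (0.14 to 5.19) in the 24 without. At 4 h the members with a kappaB match had a median of 0.32 (-0.12 to 1.26) and those without 0.20 (-0.49 to 1.62). The medians at 4 h with and without a match were 0.16 and 0.30 for ISRE, and 0.30 and 0.18 for GAS. These are descriptions of the windows, with no test.

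The lower dose gave a similar picture. With TNF 5, 28 of 36 members were called higher than in untreated cells over the 3 times and 0 lower (4.8% of genes were higher), with a median of 0.74. All 28 were among the 32 called with TNF 100, in a comparison that shares the untreated arrays. At 4 h 4 members were called (ISG20, OASL, IFIH1 and RIGI; 1.94% of genes), at 8 h 9 (2.38%) and at 16 h 29 (3.17%). The 4 h count was 2 without replicate 1 of untreated cells and 1 without either replicate of TNF 5. The 8 h count was 2 without replicate 1 of TNF 5, 5 and 4 without replicate 1 or 2 of untreated cells, and 16 with the replicate number as a block. Same-numbered arrays at 8 h deviated together, and the cause of the change in count was not tested. RSAD2 had signals of 4864 and 4004.2 with TNF 5 at 16 h, beside 8648 and 8631 with TNF 100. IFIT1 had 9052 and 7452 beside 9942 and 10962, and EIF2AK2 had 2635 and 2569 beside 2896 and 2354, where the doses overlapped. In the direct comparison of the doses over the 3 times, 33 of 36 members had a higher mean with TNF 100, with a median of 0.21. However, 2 members passed the test, ISG20 (0.66, SE 0.09, adjusted p = 0.000291) and OASL (0.61, SE 0.09, adjusted p = 0.00122), where 0.703% of genes were called higher. Of the NF-kB list, 7 of 11 genes passed in that comparison. For MX1 the difference between doses was 0.34, with a 95% interval from 0.10 to 0.58, and for IFIT1 it was 0.25, from -0.06 to 0.56. With the replicate block, 8 members passed between the doses.

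Part of the group also rose with time in untreated, interferon-gamma-primed cells. From 4 to 16 h, 17 of 36 members were higher (7.08% of genes were) and 1, OAS3, was lower (-0.63, adjusted p = 0.0216 in limma; 4.73% of genes were lower). The OAS3 call was lost without either replicate at 4 h or without replicate 2 at 16 h (adjusted p up to 0.32), and after median centring. Among the called members the largest rises were those of RSAD2 (1.91), ISG20 (1.41), OASL (1.36) and IFI44L (1.30), and the median of all 36 members was 0.69. IFI6 had 1.67 and did not pass (adjusted p = 0.114). EIF2AK2 had -0.58 and did not pass (adjusted p = 0.0526). Without replicate 2 of untreated cells at 4 h, 11 members were called, and without replicate 2 at 16 h 10 were. In cells with EGF alone 22 members were higher at 16 h than at 4 h (7.8% of genes), and in cells with insulin alone 25 were (6.33%), comparisons that were added after the values had been seen. The EGF count was 13 without replicate 1 at 4 h or without replicate 2 at 16 h, and the insulin count was 16 without replicate 1 at 4 h. The 14 members higher in all 3 kinds of cell included MX1, OAS1, OASL, RSAD2, RIGI, IFIH1, IFI27 and ISG20. At most 6.33% of genes can be higher in all 3.

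EGF and insulin alone gave few called differences in these genes. With EGF 5 members had an unadjusted p below 0.05 in limma. OASL was the only member called with EGF (0.47, SE 0.09, adjusted p = 0.0463 in limma; 0.58% of genes were called higher). Its signals with EGF were 1752 and 1862 at 4 h, 2139 and 2304 at 8 h and 3931 and 4634 at 16 h, above the untreated arrays at each time. That call was lost whenever an array of either group was left out, except replicate 1 of untreated cells at 4 h. With insulin 0 of 36 members passed in limma (6 at an unadjusted p below 0.05; 0.271% of genes were called in either direction). RSAD2 had a difference of 0.22 with EGF, with a 95% interval from -0.16 to 0.60. With insulin it had 0.28, from -0.10 to 0.66. EGF and insulin alone were not tested at single times. The insulin difference was largest at 16 h in 30 of 36 members, at 4 h in 4 and at 8 h in 2. Its median was 0.13 at 16 h and -0.07 at both 4 and 8 h. MX2 had signals of 887 and 881 with insulin at 16 h, against 519 and 514 in untreated cells. IFI27 was lower with insulin at 16 h, at 6315 and 5919 against 7553 and 6684.

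Adding EGF or insulin to TNF was followed by no called change in any member. EGF 100 added to TNF 100 gave 0 of 36 calls (0 at an unadjusted p below 0.05; 0.296% of genes called), and insulin 500 added to TNF 100 gave 0 (2 unadjusted; 0.617% of genes). With the lower doses, EGF 1 and insulin 5 added to TNF 5 each gave 0 calls in the group and in 0% of all genes, with 2 and 0 members at an unadjusted p below 0.05. The tests of interaction also gave 0 calls, with 2 unadjusted for EGF (0.037% of genes called) and 2 for insulin (0.0123%). The interaction was above 0 in 8 of 36 members for EGF (median -0.16) and in 13 for insulin (median -0.07). Over all 8105 genes it was above 0 in 4216 for EGF and in 3928 for insulin. At 16 h RSAD2 had signals of 8029 and 8062 with TNF 100 and EGF, and 8379 and 8918 with TNF 100 and insulin, beside 8648 and 8631 with TNF 100. For RSAD2 the interval of the difference over the 3 times ran from -0.52 to 0.24 when EGF was added and from -0.51 to 0.25 when insulin was added. For MX1 those intervals ran from -0.39 to 0.09 and from -0.31 to 0.17. Over all 36 members, no interval with EGF or insulin 500 added to TNF 100 reached below -1.02 or above 0.73. Those limits are the outermost ends over all members, and each interval is for the mean of the 3 times. They do not bound a change at a single time. The number of arrays limits these statements, and a change within a member's own interval is not excluded.

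TNF 100 was also compared within EGF-treated and insulin-treated cells, which share no array with the comparison in untreated cells. In EGF-treated cells 29 of 36 members were higher with TNF (6.24% of genes), with a median of 0.79, and in insulin-treated cells 31 were (9.32%), with a median of 0.85. The count of members higher in all 3 backgrounds was 27. Over all genes that overlap was not counted, and it can be at most 6.24%, the smallest of the 3 shares. LGALS3BP, DDX60 and IFI6 passed in none of them without the replicate block. With it, DDX60 and IFI6 passed in all 3 (adjusted p up to 0.0242) and LGALS3BP in none. Across the 36 members the differences over the 3 times had r = 0.958 and rho = 0.948 between untreated and EGF-treated cells, and r = 0.950 and rho = 0.945 between untreated and insulin-treated cells, as a description across genes of 1 pathway. The difference was larger at 16 h than at 4 h in 22 members in EGF-treated cells (1.68% of genes) and in 21 in insulin-treated cells (2.95%), tests added after the values had been seen. There were 19 members called so in all 3 backgrounds, where at most 1.68% of genes can be.

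**Figure D5:**
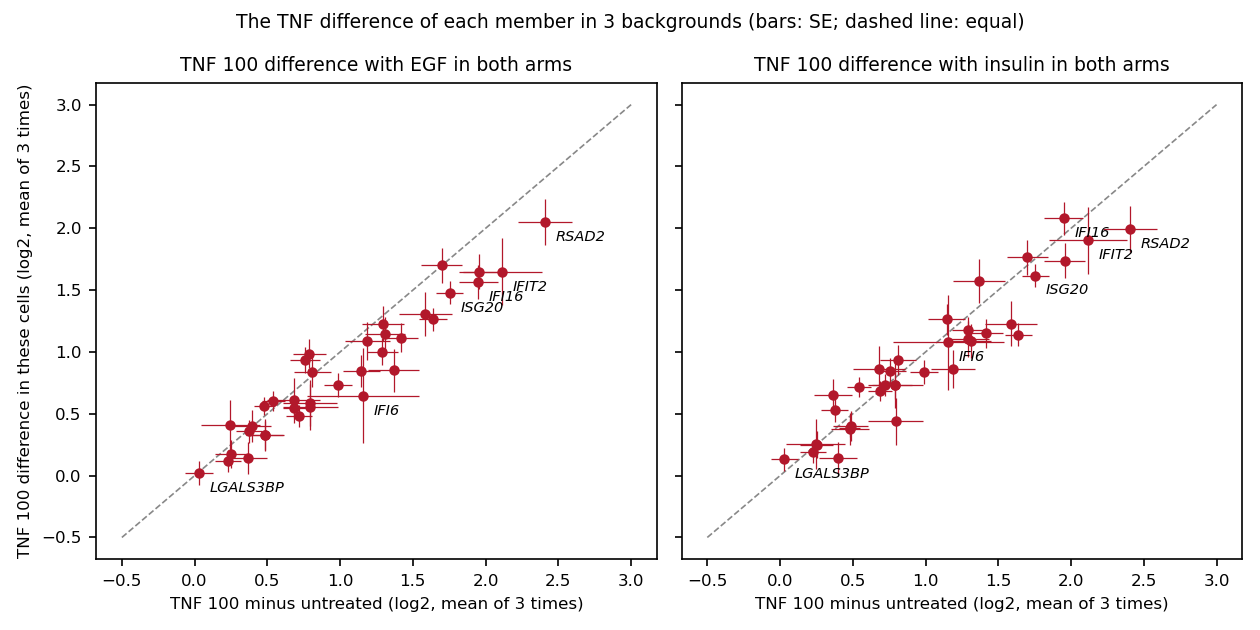
For each of the 36 members, the TNF 100 difference (log2, mean of 3 times) in untreated cells on the x axis against that in EGF-treated cells (left) and insulin-treated cells (right); bars are standard errors and the dashed line marks equal values. The points lie along the line, above it in 8 members in the left panel and in 13 in the right. RSAD2 is farthest right at 2.41 and LGALS3BP farthest left at 0.03 in both panels.

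The genes that make and receive the interferon signal were taken from a list of 26, of which 18 were measured. With TNF 100, 11 were higher, 1 was lower and 6 did not pass over the 3 times. Of all 8105 genes tested, 591 were higher (7.29%) and 916 were lower in that comparison. IFNB1, which encodes interferon-beta, had signals of 6.98 and 6.19 in untreated cells at 16 h and 1244 and 889 with TNF 100. It was 214 and 77.2 with TNF 5, 222.5 and 125 with TNF 5 and EGF, and 183.1 and 156.3 with TNF 5 and insulin. With TNF 100 it was 532 and 512 beside EGF and 809 and 571 beside insulin. In every array without TNF, and in every array at 4 and 8 h, IFNB1 was at most 34.25. IFNAR2, a chain of the type I receptor, was higher by 1.61, 1.83 and 1.85 on the log2 scale at 4, 8 and 16 h. JAK1, the kinase bound to that chain, was higher by 0.92 over the 3 times, and TYK2, its partner kinase, had 0.03 and did not pass. Of the transcription factors, IRF7 was higher by 0.81 and IRF3 by 0.37, while IRF9 (0.12, adjusted p = 0.564) and IRF1 (0.29, 0.0996) did not pass. The inhibitor SOCS1 was higher by 1.16 and the kinase IKBKE by 1.27, with 2.18 at 16 h. TLR3, an RNA receptor, was the gene called lower (-0.58, adjusted p = 0.026), with -1.16 at 4 h and 0.43 at 16 h. CGAS, STING1, IFNL1 and IFNLR1 were not analysed here. A larger signal in these bulk cultures cannot be told apart between more responding cells and more RNA per cell.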

How the data were processed

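Probe signals of the 54 arrays were deposited by the authors as linear intensity values made with MAS5, per the submitters' processing notes; no aligner or build applies. Controls (68 of 22283 probe sets) were left out, 12.5 was added (the 10th percentile of all signals) and log2 was taken; a fold on this scale understates the change of dim genes. Probe sets with a group mean log2 of at least 7.24 in any group were kept (13422), and each gene was read from its kept probe set of highest mean among those mapped to it alone (8105 genes; 19065 probe sets had 1 gene, 1043 several and 2107 none). The package limma (version 3.58.1, R 4.3.3) was used for a model of the means of all 27 groups (27 residual degrees of freedom), an F test over the 3 times or a single contrast, and Benjamini-Hochberg adjustment over the kept probe sets. The script was tested on simulated data. Every member was named, and for other genes only fixed lists (interferon pathway, NF-kB targets, markers). The members, lists, tests and alternatives were chosen with earlier results of these data known. Same-numbered arrays deviated together (correlation above 0.1) in 36 of 36 pairs at 8 h, with correlations of 0.29 to 0.58. They did so in 27 of 36 pairs at 4 h (median 0.20) and in 31 of 36 at 16 h (median 0.205). Part of the spread thus followed the replicate number at all 3 times, most at 8 h. The main model left that number out, and the replicate block was run as an alternative. Array number limits the precision. Figures were drawn with matplotlib 3.10.9 in Python 3.11.15. The promoter window of 1 member enters the motif counts and is not shown here.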

Additional observations from a re-analysis of the deposited data

Results flagged for a closer look

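The TNF 100 difference of these genes differed between 4 and 16 h, by a test of that change itself in limma. It grew in 22 of 36 members in untreated cells, in 22 in EGF-treated cells and in 21 in insulin-treated cells, and the TNF 5 difference grew in 20. Beside the values given above for RSAD2 (4.16), IFIT1 (3.77) and IFI16 (3.14), the change was 3.11 for IFIT2, 2.97 for HERC5, 2.88 for IFI44L, 2.65 for MX2 and 2.64 for USP18. It was 2.34 for OAS2, 2.10 for MX1, 2.08 for OAS1, 2.06 for RIGI and 2.03 for EIF2AK2. The 4 h difference itself was below 0 in EIF2AK2 (-0.49), HERC5 (-0.41), IFIT1 (-0.23), BST2 (-0.12) and USP18 (-0.09) among these genes, and none of the 5 passed at 4 h. The remaining values were 1.97 for IFI44, 1.78 for IFIT3, 1.71 for OAS3, 1.60 for TRIM22, 1.50 for HERC6, 1.30 for IFITM1, 1.01 for OASL, 0.85 for IFI35 and 0.83 for BST2. The difference was larger at 16 h in 36 of 36 members in untreated cells.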

How the results depend on the processing

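No called member changed sign under any alternative run (a pseudocount of 1 or 50, no filter, quantile normalization, median centring, the replicate block, the 8 h arrays of replicate 2 left out, only the groups compared in the fit, the mean over probe sets, or any array left out). Of the 32 members called with TNF 100 over the 3 times, 26 were called in all of these. Called counts that moved by over 1.5 times are given here, and the cause was not tested. With only the groups compared in the fit, which leaves fewer arrays, TNF 100 at 4 h had 2 calls and at 8 h 3, TNF 5 had 0 at 4 h and 1 at 8 h, the dose comparison had 1, and untreated 16 h against 4 h had 8. With the replicate block, TNF 100 at 4 h had 10, TNF 5 at 8 h 16, the dose comparison 8, EGF alone 2, insulin alone 1 (lower) and insulin added to TNF 100 1 (lower), and no other count moved by over 1.5 times. Without the 8 h arrays of replicate 2, the 8 h counts were 7 with TNF 100 and 3 with TNF 5. Median centring gave 4 for TNF 5 at 8 h and 14 for the growth of the TNF 100 difference in EGF-treated cells. A pseudocount of 50 gave 4 for the dose comparison. EGF alone had 0 under a pseudocount of 50, no filter, median centring, the mean over probe sets, only the groups compared, and without the 8 h arrays of replicate 2. With each array left out in turn, the counts ranged from 29 to 34 for TNF 100 and 24 to 29 for TNF 5 over the 3 times. For TNF 100 they ranged from 4 to 5 at 4 h, 8 to 12 at 8 h and 28 to 31 at 16 h, and for TNF 5 from 1 to 3, 2 to 9 and 25 to 26. The growth from 4 to 16 h had 19 to 21 with TNF 100, 15 to 19 with TNF 5, and 16 to 21 in both EGF-treated and insulin-treated cells. The time comparisons had 10 to 14 in untreated, 13 to 20 in EGF-treated and 16 to 21 in insulin-treated cells. TNF 100 within EGF-treated cells had 26 to 29 and within insulin-treated cells 29 to 32, the dose comparison kept 2, and EGF alone had 0 to 1. ISG15, IFI6 and DDX60 passed over the 3 times with the replicate block. Dim probes such as untreated RSAD2 and IFI44L limit the size of a fold, and no detection calls were used.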
